A study of Mus musculus with 8 samples.

Results

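The promoters of the genes for cytosolic ribosomal proteins were examined as a housekeeping reference in ATAC-seq peak lists from mouse squamous cell carcinoma (SCC) cells. A gene was a member when it was protein-coding in the mm10 GENCODE annotation and its symbol was Rpl or Rps followed by a digit, or Rplp0, Rplp1, Rplp2 or Rpsa. S6 kinase genes and paralogues with names ending in l or l1 were left out. This gave 85 of 21938 protein-coding genes. Of these, 77 were ribosomal protein genes proper, 46 of the large and 31 of the small subunit. A further 7 were retrocopies that carry a coding label (Rpl10-ps3, Rps27rt, Rpl9-ps1, Rpl36a-ps1, Rpl36-ps4, Rpl9-ps6 and Rps12-ps3), and 1 was Rps19bp1, which encodes a binding partner of Rps19 and no ribosomal subunit. A promoter was counted as called when a peak of that library overlapped 500 bp on either side of the gene start.

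All cells came from K14CreER FAKflox/flox FVB mice, in which the Cre is driven by a keratin 14 promoter, and from SCCs raised with DMBA and TPA. FAK, a kinase of integrin adhesions encoded by Ptk2, had been deleted in culture with 4-hydroxytamoxifen. A FAK-/- clone was studied as it was, or after retroviral re-expression of FAK-WT, of FAK-nls, which carries the substitutions R177A, R178A, R190A, R191A, R216A and R218A in its nuclear localisation signals, or of kinase-defective FAK-kd (K454R). Each of the 4 lines had 2 biological replicates, so 8 libraries were compared, and all 4 lines descend from a cloned FAK-deleted population. The study compared FAK-WT with each of the other lines.

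Ribosomal protein genes are transcribed at high rates in nearly every growing cell, and their products assemble with ribosomal RNA into the large (Rpl) and small (Rps) subunits. Their promoters typically lie in nucleosome-depleted DNA, are bound by ETS family, SP1 and YY1 factors in many cases, and start transcription at a C within a run of pyrimidines, the 5′ end of the TOP mRNAs whose translation responds to mTOR. ATAC-seq detects such open DNA by insertion of the Tn5 transposase.

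The lists held 24402 to 53728 peaks per library. Both FAK-nls libraries had the fewest peaks (24402 and 24974) and the lowest median pileup over all peaks, 8.94 and 8.82 against 11.3 to 13.0 in the other 6 libraries. The study lists sequenced and mapped reads and the share of duplicates for every library. By that list both FAK-kd libraries had the fewest mapped reads, and both FAK-nls libraries had the highest shares of duplicates. The peak lists themselves hold no read counts, and the part of depth in these results was not tested. A peak lay at the Ptk2 start in all 8 libraries, which does not test the deletion, since a peak at the start says nothing of an exon removed further along. Of 9 keratinocyte marker genes, none had a peak at its gene start in all 8 libraries. Krt14 had one in 1 library and the other 8 in none, although Itga6 was called in all 8 at another transcript start. The defining marker Krt5 was in no library. Of the markers of other cell types, none of 5 immune genes was called in any library, Kdr alone of 3 endothelial genes was called at its gene start, in 1 library, and Mitf and Pmel of 3 melanocyte genes were called in 8. Col1a1 of 4 fibroblast genes was called in 1 library at its gene start, and with any transcript start counted Pdgfra was called in 8, Col1a1 in 6, Cdh5 in 2 and Col1a2 in 1. The epithelial identity given by the labels was thus not visible in these promoter calls, and no pair of libraries shared an identical peak.

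Promoter sequences of members that stood at the ends of the range are shown first. RefSeq (GRCm38.p6, the assembly of mm10) gave a promoter for 57 of the 77 genes proper. The stretches run from 100 bases before to 15 bases after the RefSeq start, on the gene's strand. That start lies 405 bp downstream of the GENCODE gene start, at which peaks were counted, for Rpl15, 56 bp downstream for Rpl38, 1425 bp for Rps10 and 1947 bp for Rps2, and within 32 bp of it for the others shown. Capitals mark the letters CCGGAAG, an ETS family motif, or GGGCGG, an SP1 motif, on either strand. Rpl15 and Rpl37 had the highest and Rpl38 nearly the lowest fold enrichment of the members called in every library, Rpl19, Rpl24, Rpl37a and Rps4x were called in only some libraries, and Rps10 and Rps2 had no peak at the annotated gene start but one at the start shown.
Rpl15 (chr14:18270972-18271086, minus strand): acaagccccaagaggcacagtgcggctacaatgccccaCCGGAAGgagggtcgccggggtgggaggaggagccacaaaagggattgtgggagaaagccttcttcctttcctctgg
Rpl37 (chr15:5116513-5116627, plus strand): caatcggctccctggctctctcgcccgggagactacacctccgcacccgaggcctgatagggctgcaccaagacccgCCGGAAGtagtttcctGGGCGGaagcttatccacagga
Rpl38 (chr11:114668480-114668594, plus strand): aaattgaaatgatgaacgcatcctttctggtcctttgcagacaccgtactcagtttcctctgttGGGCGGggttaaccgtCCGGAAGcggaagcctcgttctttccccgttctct
Rpl19 (chr11:98026610-98026724, plus strand): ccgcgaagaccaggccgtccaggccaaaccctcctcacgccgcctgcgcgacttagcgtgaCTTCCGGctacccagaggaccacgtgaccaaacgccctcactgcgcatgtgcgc
Rpl24 (chr16:55966175-55966289, plus strand): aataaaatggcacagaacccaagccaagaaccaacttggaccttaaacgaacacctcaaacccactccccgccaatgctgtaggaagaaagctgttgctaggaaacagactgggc
Rpl37a (chr1:72711160-72711274, plus strand): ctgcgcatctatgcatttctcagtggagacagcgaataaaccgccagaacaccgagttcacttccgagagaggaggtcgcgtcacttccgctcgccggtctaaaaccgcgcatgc
Rps4x (chrX:102189377-102189491, minus strand): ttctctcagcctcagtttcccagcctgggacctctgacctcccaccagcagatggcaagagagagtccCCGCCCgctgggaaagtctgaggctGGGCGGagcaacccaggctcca
Rps10 (chr17:27635230-27635344, minus strand): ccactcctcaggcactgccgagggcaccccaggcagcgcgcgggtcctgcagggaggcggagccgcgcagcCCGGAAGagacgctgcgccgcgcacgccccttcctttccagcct
Rps2 (chr17:24719963-24720077, plus strand): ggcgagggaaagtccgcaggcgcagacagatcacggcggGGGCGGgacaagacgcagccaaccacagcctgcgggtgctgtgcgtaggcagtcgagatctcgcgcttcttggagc

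Over the full RefSeq windows (250 bases before to 50 after the start, both strands), CCGGAAG was found in 23 of 57 members (40.4%) and in 12.2% of 16465 other protein-coding genes. The SP1 letters GGGCGG were in 59.6% against 48.0%, the YY1 letters AAGATGGC in 7.02% against 3.27%, the cyclic AMP response letters TGACGTCA in 8.77% against 2.41%, the TATA letters TATAAA in 8.77% against 12.9%, CCAAT in 31.6% against 38.7%, the E-box letters CACGTG in 8.77% against 8.11% and the AP-1 letters TGANTCA in 3.51% against 7.11%. A run of at least 7 pyrimidines on the gene's strand within 50 bases of the start was in 87.7% of members against 49.1% of other genes, and a C followed by 4 pyrimidines at the annotated start itself in 21.1% against 2.13%. These shares are descriptions and were not tested. Among the matched members, CCGGAAG was in 20 of 45 called in all 8 libraries and in 1 of 10 called in some. Among those called in all 8 libraries, the median centred fold enrichment (log2, defined below) was -0.04 with and -0.08 without these letters, which was not tested.

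The first question was whether all libraries called these housekeeping promoters alike. Of the 85 promoters, 72 were called in each FAK-WT library, 68 and 64 in FAK-/-, 63 and 67 in FAK-nls, and 64 and 70 in FAK-kd. Both FAK-WT libraries were thus the highest, with no overlap with the other 6. Other protein-coding genes did not separate FAK-WT, with 47.0% and 44.9% called there, 46.3% and 44.0% in FAK-/-, 39.5% in each FAK-nls library, and 43.9% and 46.5% in FAK-kd. In percent, FAK-WT reached 84.7 ± 0.0, FAK-/- reached 77.6 ± 3.33, FAK-nls had 76.5 ± 3.33 and FAK-kd had 78.8 ± 4.99 (SD, n = 2 each). The differences between lines took 63.0% of the variance and were within the spread of the libraries (exact permutation test over 105 divisions of the libraries into pairs, p = 0.219, adjusted p = 0.257 over 5 quantities, smallest possible p 0.00952). The order changed when each library was held to its 24383 strongest peaks. Then 49 and 61 promoters were called in FAK-WT, 53 and 50 in FAK-/-, 63 and 66 in FAK-nls, and 58 and 53 in FAK-kd, so that FAK-nls became the highest line. This cut left FAK-nls replicate 1 whole and took few of the 24959 peaks of FAK-nls replicate 2. It took many of the 53703 peaks of FAK-WT replicate 1, and what the order depends on was not tested. Other protein-coding genes turned in the same way, with 34.8% and 37.6% in FAK-WT and 39.5% and 39.1% in FAK-nls.

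Against all other protein-coding genes, the ribosomal protein promoters were called more often in 8 of 8 libraries. The call rate of other genes lay between 39.5% and 47.0%, and 10710 of these 21853 genes were called in no library. A higher call rate could thus be foreseen for genes chosen as a housekeeping reference, and closer lists are given below. The mean difference was 35.5 percentage points (SD 3.31, range 31.3 to 39.8 over the libraries; exact two-sided sign-flip test over 256 sign patterns, p = 0.00781, the smallest it can give, adjusted p = 0.0104 over 4 quantities). Of the 85 members, 57 were called in all 8 libraries, 16 in some and 12 in none. Of all protein-coding genes, 35.9% were called in all 8.

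The 12 members without a call were of 2 kinds. The 7 retrocopies had no peak in any library. The other 5 were ribosomal protein genes proper, Rpl3, Rps2, Rps10, Rps14 and Rpl17, whose GENCODE gene start is that of a transcript annotated upstream of the others. Other annotated starts of each of them were called in all 8 libraries. These lay 8462 to 8535 bp downstream of the gene start for Rpl3, 1947 to 2157 bp for Rps2, 1124 to 1441 bp for Rps10, 27498 to 28131 bp for Rps14 and 1919 bp for Rpl17. Fold enrichment there ran over the libraries from 3.72 to 5.09 for Rpl3, from 3.69 to 5.91 for Rps2, from 3.36 to 4.97 for Rps10, from 4.17 to 5.67 for Rps14 and from 3.63 to 5.51 for Rpl17. When any annotated transcript start counted, 62 of the 77 genes proper were called in all 8 libraries, 15 in some and 0 in none, and 39.8% of other protein-coding genes in all 8.

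The 16 members called in some libraries had a lower median fold enrichment than the members called everywhere in each of the 8 libraries (3.35 to 4.08 against 4.24 to 5.30), though single values were higher, such as 6.31 for Rpl23 in FAK-nls replicate 2. Rpl37a, a large-subunit protein with a zinc finger, had fold enrichments of 3.21 and 3.96 in FAK-WT and 3.52 in FAK-kd replicate 2, and no peak in the other 5 libraries. Rpl19 stood at 3.19 and 3.19 in FAK-WT and at 4.22 in FAK-nls replicate 2. Rpl24, which is mutated in the Belly spot and tail mouse, stood at 3.27 and 3.69 in FAK-WT and 3.35 in FAK-/- replicate 1. Each of these 3 genes thus had a peak in the FAK-WT pair and in 1 further library. Rpl36 was called in FAK-WT replicate 1 (2.98) and FAK-kd replicate 2 (4.33), and Rpl8, near the peptidyl transferase centre, in FAK-WT replicate 2 alone (2.82). The X-linked Rps4x was called at 4.04 and 4.31 in FAK-WT, 3.13 and 3.69 in FAK-/-, 4.05 in FAK-kd replicate 2 and in neither FAK-nls library. Rps23, of the decoding centre, was missing from both FAK-/- libraries and ranged from 3.53 to 5.91 in the other 6. Rpl23a, at the exit of the peptide tunnel, was called in 5 libraries at 2.95 to 4.85. Rpl12, Rpl32, Rpl4, Rps27a, Rpl23, Rps24 and Rpl35a were each missing from 1 library, which was never a FAK-WT library. The median −log10 p-value of the partly called members was between 4.504 and 5.94 by library, and that of the members called everywhere between 6.73 and 12.9. Of these 16 members, 15 were called in each FAK-WT library, 11 and 7 in FAK-/-, 6 and 10 in FAK-nls, and 7 and 13 in FAK-kd. Of the 3319 other protein-coding genes called in some libraries, 73.7% and 60.02% were called in the FAK-WT pair, 69.2% and 53.8% in FAK-/-, 24.3% and 24.1% in FAK-nls, and 53.3% and 70.3% in FAK-kd.

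**Figure D1:**
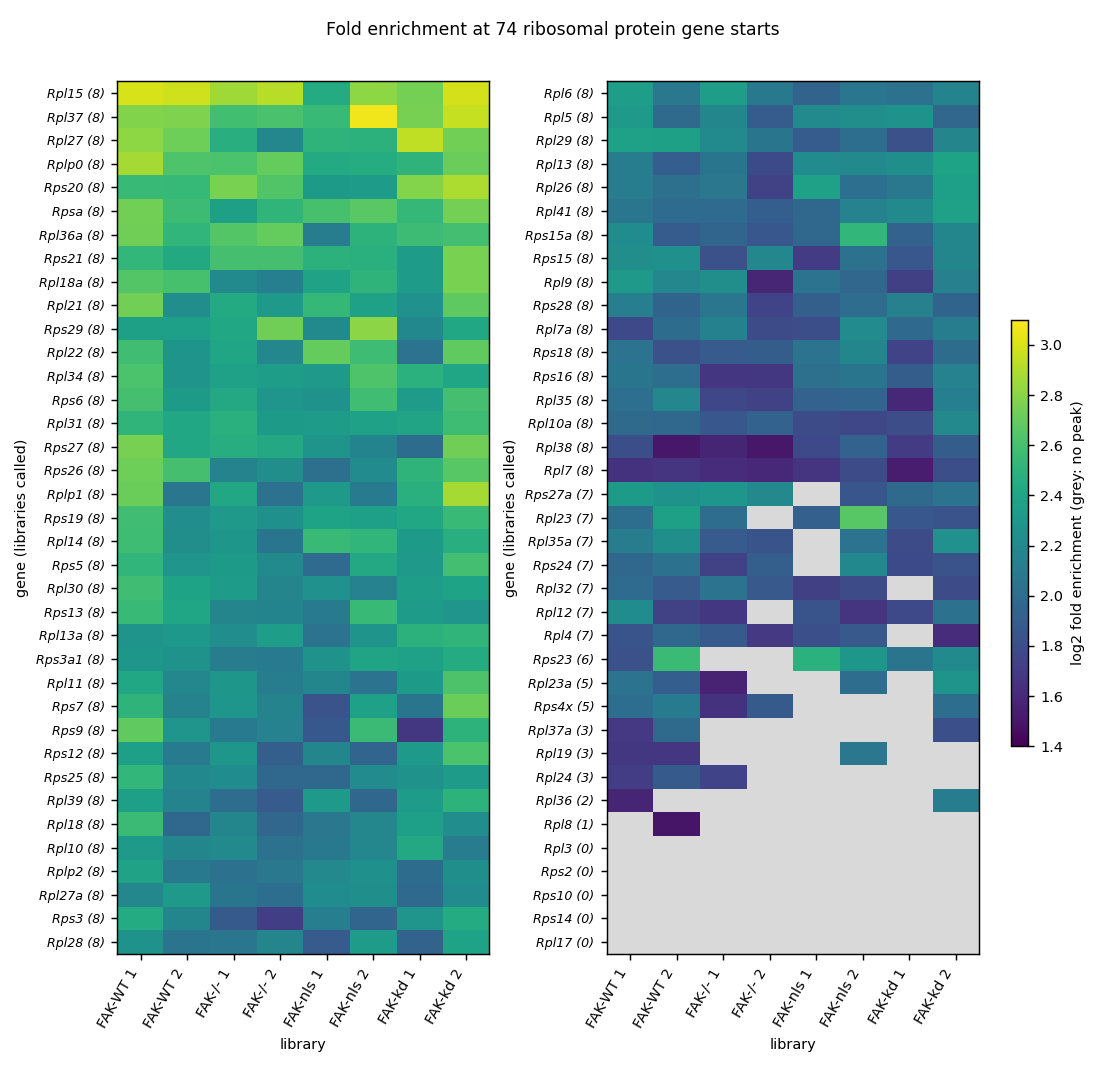
Fold enrichment (log2, colour) of the strongest peak at 74 of the ribosomal protein gene starts (rows, with the number of libraries called in brackets) in each library (columns), in order of libraries called and then of mean fold enrichment. Grey marks no peak: 54 genes have a colour in all 8 columns, 15 in some, and Rpl3, Rps2, Rps10, Rps14 and Rpl17 in none.

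Presence in both libraries of one line and neither of the other was counted for the comparisons the study made. FAK-WT alone had Rpl37a, Rpl19 and Rps23 against FAK-/- (3 of 85, beside 0.629% of all protein-coding genes), Rpl37a, Rpl24 and Rps4x against FAK-nls (3, beside 3.14%) and Rpl19 and Rpl24 against FAK-kd (2, beside 0.488%). In the other direction there were 0 members in each comparison, beside 0.346%, 0.0820% and 0.337% of all genes. These comparisons share the FAK-WT libraries, and presence in 2 against 2 libraries was not tested. The counts changed when peak numbers were made equal. With an equal number of strongest peaks per library, FAK-WT alone had 3 members against FAK-/- (Rps3 and Rpl39 among them), 0 against FAK-nls and 0 against FAK-kd, while FAK-/- alone had 1 (Rpl32), FAK-nls alone 6 (Rpl5, Rpl32, Rpl4, Rpl38 and Rps28 among them) and FAK-kd alone 1 (Rpl38). The shares of all protein-coding genes beside these counts were 0.830%, 0.638% and 0.397% for FAK-WT alone and 0.666%, 1.90% and 0.930% for the other line alone.

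Where they were called, the ribosomal protein promoters had peaks of a similar median fold enrichment to other promoters, but shorter ones. Fold enrichment is the pileup over the local background of the same library. Its median over members was 5.05 and 4.56 in FAK-WT, 4.49 and 4.18 in FAK-/-, 4.52 and 4.62 in FAK-nls, and 4.61 and 5.12 in FAK-kd. The medians over other promoters were 5.05 and 4.56, 4.47 and 4.32, 4.52 and 4.65, and 4.48 and 5.06 in the same order. The mean log2 ratio of members to other promoters was 0.00095 (SD 0.0253, range -0.05 to 0.04; exact sign-flip test, p = 0.883, adjusted p = 0.883), and its sign turned under several settings. Replicates of FAK-WT and of FAK-kd differed by nearly as much as the lines did: the line means were 4.81 ± 0.349, 4.33 ± 0.220, 4.57 ± 0.0658 and 4.86 ± 0.362 (in the same order of lines, SD, n = 2 each; exact permutation test, p = 0.229, adjusted p = 0.257). The ratio to other promoters differed between lines within the spread too (58.7% of variance, exact permutation test, p = 0.257, adjusted p = 0.257).

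Median peak length of the members was 745.5 and 688.5 bp in FAK-WT, 641 and 600 bp in FAK-/-, 577 and 489 bp in FAK-nls, and 601 and 705.5 bp in FAK-kd. Other promoters had 890 and 828 bp, 809 and 775 bp, 643 and 619 bp, and 760 and 846 bp. Members were shorter in 8 of 8 libraries, with a mean log2 ratio of -0.29 (SD 0.0694, range -0.37 to -0.16; exact sign-flip test, p = 0.00781, adjusted p = 0.0104). Both FAK-nls libraries had the shortest peaks at both kinds of promoter. The differences between lines took 74.9% of the variance and did not pass the test (exact permutation test, p = 0.0952, adjusted p = 0.257).

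Median pileup, which is not stated to be scaled between libraries, was 19.9 and 14.6 in FAK-WT, 16.9 and 14.1 in FAK-/-, 10.0 and 10.1 in FAK-nls, and 15.3 and 16.5 in FAK-kd. Other promoters had 21.4 and 16.8, 17.6 and 15.2, 10.8 and 10.6, and 15.5 and 17.95. The members were lower in 8 of 8 libraries, with a mean log2 ratio of -0.0986 (SD 0.0542; exact sign-flip test, p = 0.00781, adjusted p = 0.0104). From the highest to the lowest library, the members' median pileup moved 1.99-fold, their length 1.52-fold and their fold enrichment 1.23-fold. Other promoters moved 2.02-fold, 1.44-fold and 1.17-fold. Pileup was lowest in both FAK-nls libraries, and the differences between lines did not pass the test (76.0% of variance, exact permutation test, p = 0.124, adjusted p = 0.257).

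**Figure D2:**
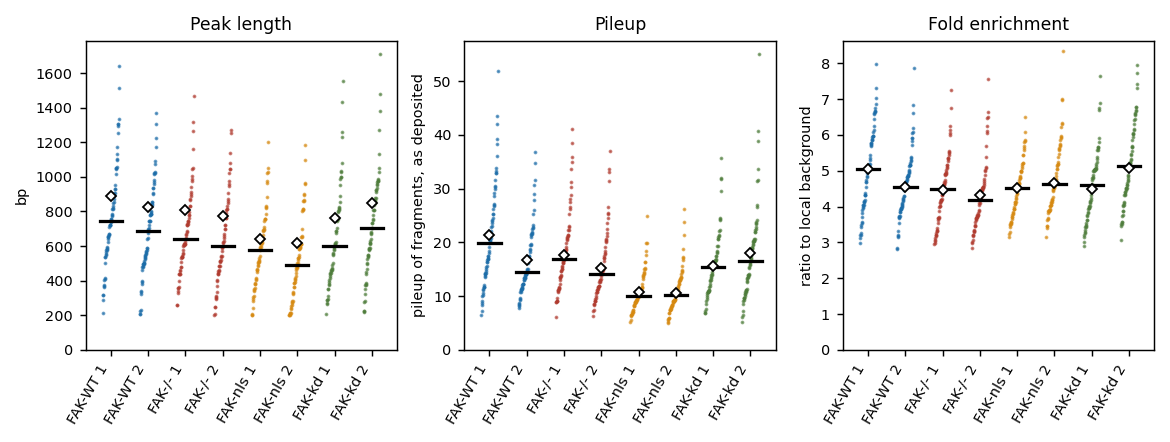
Peak length (bp), pileup (as deposited) and fold enrichment (ratio to local background) at the called ribosomal protein promoters of each library, with 1 coloured point per promoter, a black bar at their median and an open diamond at the median of other called protein-coding promoters. The diamond lies above the bar in all 8 libraries for length and pileup, while for fold enrichment the 2 marks nearly coincide.

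The shorter peaks ended sooner on the side of the gene body. The peak reached a median of 342.5 and 298.5 bp into the gene in FAK-WT, 312.5 and 272.5 bp in FAK-/-, 245 and 182 bp in FAK-nls, and 272.5 and 373 bp in FAK-kd. At other promoters it reached 475 and 451 bp, 438 and 419 bp, 340 and 331 bp, and 410 and 462 bp. The mean difference was -128 bp (range -152.5 to -89 bp, shorter in 8 of 8 libraries, exact sign-flip test, p = 0.00781). On the upstream side the mean difference was -7.81 bp (shorter in 4 of 8 libraries, exact sign-flip test, p = 0.523). These 2 measures were chosen after the lengths had been seen. The peak covered the annotated start at 86.6% to 98.6% of called members by library, and at 87.6% to 91.8% of other called promoters.

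**Figure D3:**
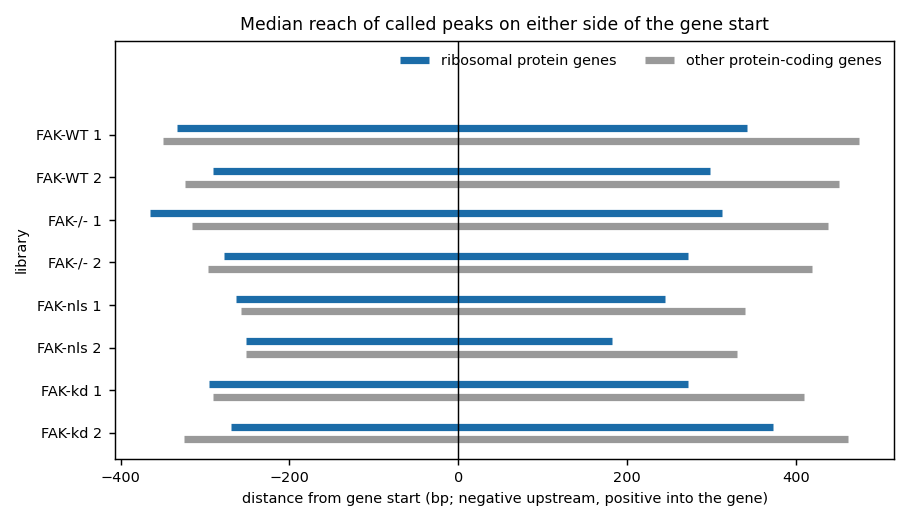
Median distance (bp) to which the called peak reached upstream (negative) and into the gene (positive) from the gene start, for ribosomal protein genes (blue) and other protein-coding genes (grey) in each library. The blue bar ends nearer the start on the side of the gene in all 8 libraries, and the upstream ends differ in both directions.

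Other gene groups with housekeeping roles gave a closer reference. Over the libraries, the 77 genes proper were called at 80.5% to 92.2%, 78 mitochondrial ribosomal protein genes at 76.9% to 96.2%, 68 translation initiation and elongation factor genes at 80.9% to 91.2%, and 40 proteasome subunit genes at 72.5% to 85.0%. Of these, 56, 54, 52 and 29 genes were called in all 8 libraries. The peaks of the cytosolic ribosomal protein genes were shorter than those of the mitochondrial ones in 7 of 8 libraries, with a mean difference of -40.8 bp (SD 25.8; exact sign-flip test, p = 0.0156, adjusted p = 0.0335 over 15 such tests). They were shorter than those of the translation factors in 8 of 8, with -133 bp (SD 40.3, exact p = 0.00781, adjusted p = 0.0335), and than those of the proteasome in 7 of 8, with -33.5 bp (SD 34.5, exact p = 0.0156, adjusted p = 0.0335). Their call rate was higher than that of the proteasome genes in 7 of 8 libraries by 7.30 percentage points (SD 5.05, exact p = 0.0156, adjusted p = 0.0335), and for the other lists the differences were -1.46 (SD 4.69, exact p = 0.414, adjusted p = 0.502) and -1.14 points (SD 4.23, exact p = 0.469, adjusted p = 0.502). For fold enrichment no difference from the 3 lists passed the test (adjusted p from 0.281 to 0.502, exact tests). Median pileup was higher than that of the mitochondrial list in 6 of 8 libraries, with a mean difference of 0.957 (SD 0.940, exact p = 0.0312, adjusted p = 0.0586), and than that of the proteasome in 6 of 8, with 0.811 (SD 1.10, exact p = 0.0781, adjusted p = 0.130). Against the translation factors the difference was -0.143 (SD 0.923, exact p = 0.703, adjusted p = 0.703). The lower pileup found against all other promoters was thus not found against these lists. These tests were chosen after the data had been seen. The same genes recur in every library, so the p-values measure the spread between libraries and not that between genes.

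Related genes outside the rule were mixed. The ribosomal proteins with other names Rack1 and Fau were called in 7 and 5 libraries. Of the 7 excluded paralogues, Rpl22l1, Rps27l and Rpl36al were called in 8 libraries, Rpl7l1 in 7, and Rpl10l, Rpl39l and Rpl3l in 0. Of the 10 S6 kinase genes, whose best known product phosphorylates Rps6, 4 were called in all 8 libraries and 4 in none at their gene start. Among 283 ribosomal protein pseudogenes without a coding label, 276 had no peak in any library.

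The members called in all 8 libraries differed among themselves in fold enrichment, though no more than other promoters did. Each library's log2 fold enrichment was centred on its median over the 7881 promoters called in all 8. The mean centred value had a median of -0.06 over the 57 members and of 0.0003 over the 7824 others, and the SD between promoters was 0.24 and 0.27. The median SD within a line was 0.13 for both, against a range of the members from -0.62 to 0.56. The far more numerous others ranged from -0.98 to 0.96. Large-subunit members had a median of -0.09 (33 genes) and small-subunit members of -0.02 (23 genes).

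Rpl15, of the large subunit, was the highest. Its fold enrichment was 7.995 and 7.86 in FAK-WT, 7.25 and 7.57 in FAK-/-, 5.45 and 7.004 in FAK-nls, and 6.69 and 7.95 in FAK-kd, with a mean centred value of 0.56, at the percentile 97.9 of all such promoters. The start of Nkiras1 lies in the same window, and the peaks cannot be assigned to either gene. Rpl37 had 6.86 and 6.83, 5.99 and 6.10, 5.83 and 8.36, and 6.74 and 7.74 in the same order (mean 0.48). FAK-nls replicate 1 was the lowest library for both genes, while FAK-nls replicate 2 was the highest for Rpl37. Next came Rplp0, the base of the ribosomal stalk, with 5.43 to 7.30 (0.34), Rpl27, a Diamond-Blackfan anaemia gene, with 4.55 to 7.64 (0.33), and Rps20, of the head of the small subunit, with 5.01 to 7.42 (0.32).

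Rpl7 was the lowest, at 3.14 and 3.15 in FAK-WT, 3.07 and 3.03 in FAK-/-, 3.15 and 3.46 in FAK-nls, and 2.90 and 3.51 in FAK-kd (mean centred value -0.62). It was low in every library, though its median pileup of 25.9 ranked 6 of the 57 members and its median peak length of 1257 bp ranked 3. Its peak lay almost wholly upstream of the annotated start, reaching a median of 1237 bp upstream and -0.5 bp into the gene. Rpl38, needed for translation of Hox mRNAs, stood at 3.50 and 2.84, 2.99 and 2.85, 3.43 and 3.82, and 3.25 and 3.74 (-0.56). Also low were Rpl35, from 3.02 to 4.56 (-0.37), and Rpl10a, from 3.39 to 4.60 (-0.36). The window of Rpl35 holds the start of Arpc5l. Another protein-coding start lay in the window of 14 of the 77 genes proper (18.2%, against 10.5% of other genes). The median centred value was -0.27 over the 8 of them called everywhere and -0.01 over the 48 without such a neighbour.

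Members with particular roles lay between these ends. Of the stalk, Rplp1 ranged from 4.11 to 7.30 and Rplp2 from 4.00 to 5.20. Rpl5 and Rpl11, which bind 5S RNA and MDM2, had 3.72 to 5.00 and 4.14 to 6.16. Rps6, the S6 kinase target, had 4.83 to 6.07, Rpsa, also known as the laminin receptor, 5.17 to 6.70, and Rps19, a Diamond-Blackfan anaemia gene, 4.70 to 5.98. The qPCR reference genes Rpl13a and Rps18 had 4.14 to 5.69 and 3.35 to 4.53, and the Rps18 window also holds the start of Vps52. Of the X-linked genes, Rpl10 had 4.11 to 5.38, Rpl36a 4.35 to 6.66 and Rpl39 3.70 to 5.65, and Rps4x was the partly called one. Rps27a, made as a fusion with ubiquitin, had 3.61 to 5.02 in 7 libraries. Of these genes, Rps6, Rps19, Rplp2 and Rpsa were the steadiest, with ranges of the centred value of 0.27, 0.21, 0.24 and 0.30.

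Among the widest ranges were those of Rps9 (0.87), Rpl27 (0.69), Rpl22 (0.68) and Rps7 (0.66). For Rps9 the fold enrichment was 6.44 and 4.88 in FAK-WT, 4.32 and 4.46 in FAK-/-, 3.66 and 5.90 in FAK-nls, and 3.20 and 5.66 in FAK-kd. Replicates of FAK-WT, FAK-nls and FAK-kd lay further apart than those of FAK-/- at this gene. Rpl22, which has a role in T cell development, ranged from 4.13 in FAK-kd replicate 1 to 6.50 in FAK-nls replicate 1, and FAK-kd replicate 2 had 6.44. Rps7, an MDM2 binding protein, had 3.56 and 5.18 in FAK-nls and 4.17 and 6.58 in FAK-kd. The rank order of the 57 members had a Spearman correlation of 0.468 to 0.812 (median 0.714) between the replicates of a line and of 0.451 to 0.781 (median 0.644) between libraries of different lines. These are descriptions across genes, which are not independent and share a library. Replicates lay within 1.5-fold of each other, after centring, for 57 of 57 members in FAK-WT and 56 of 57 in each other line.

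The comparison of lines was then made promoter by promoter, with limma on the centred log2 fold enrichment of all 7881 promoters and Benjamini-Hochberg adjustment over them. No promoter, member or not, passed an adjusted p of 0.05 in any of the 3 contrasts (background 0% called in each). At an unadjusted p under 0.05 there were 7 members against FAK-/- (background 6.42%), 7 against FAK-nls (background 13.7%) and 5 against FAK-kd (background 4.53%), of 57 each. The median difference over members was 0.004, -0.002 and -0.01, and over all promoters -0.01, -0.02 and -0.009. Without centring, the medians over members were 0.13, 0.12 and 0.004, with 51, 39 and 29 of 57 members higher in FAK-WT. Over all promoters they were then 0.11, 0.098 and 0.004. The 95% interval of a single member had a median half-width of 0.29 on the log2 scale, or 1.22-fold, so smaller differences were not detectable.

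**Figure D4:**
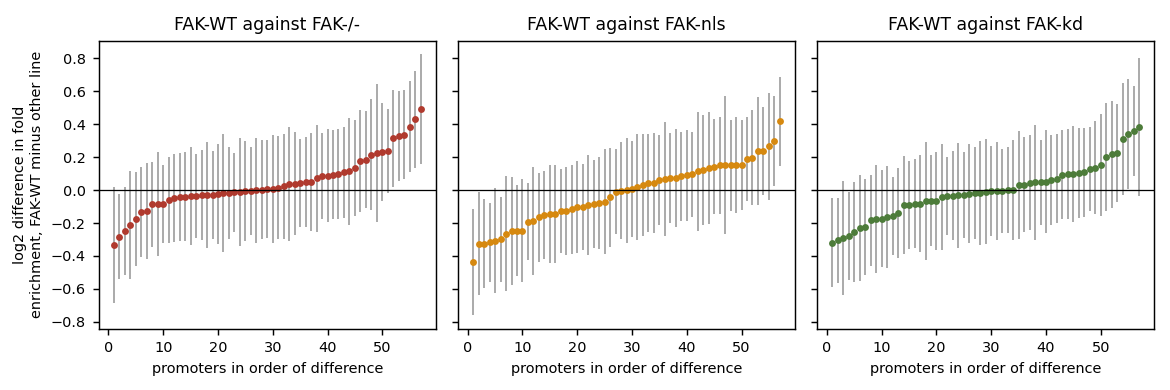
Difference in centred log2 fold enrichment between FAK-WT and each other line (vertical axis) for the 57 ribosomal protein promoters called in all libraries, each contrast in its own order of size (horizontal axis), with 95% intervals from limma as grey lines. Points lie on both sides of 0 in each panel, from -0.34 to 0.49 against FAK-/-, from -0.44 to 0.42 against FAK-nls and from -0.32 to 0.38 against FAK-kd, and none passed the adjusted threshold.

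Members among those with the smallest p in each contrast did not pass the adjustment. Against FAK-/-, Rps19bp1 had 5.30 and 4.97 against 3.31 and 3.68 (0.43, SE 0.14, limma adjusted p = 0.560), and Rps3, which lines the mRNA entry channel, 5.44 and 4.53 against 3.69 and 3.28 (0.39, SE 0.13, limma adjusted p = 0.601). Against FAK-nls, Rps26 had 6.62 and 6.06 against 4.09 and 4.66 (0.42, SE 0.13, limma adjusted p = 0.195), with 4.46 and 4.72 in FAK-/- and 5.67 and 6.31 in FAK-kd. Rpl38 was lower in FAK-WT, 3.50 and 2.84 against 3.43 and 3.82 (-0.32, SE 0.11, limma adjusted p = 0.233). Against FAK-kd, Rpl29 had 5.18 and 5.16 against 3.53 and 4.52 (0.36, SE 0.13, limma adjusted p = 0.998), Rps20 5.85 and 5.82 against 6.88 and 7.42 (-0.31, SE 0.12) and Rpl13 4.32 and 3.75 against 4.74 and 5.23 (-0.32, SE 0.13), both with the same adjusted p. These genes were picked by their small p, so a gap between the 2 lines compared follows in part from that choice. The fold enrichments printed are not centred, while the differences are, and none of the differences passed the threshold.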

How the data were processed

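ATAC-seq peaks were called by the authors in each library separately with MACS2 2.1.1 (broad peaks, q threshold of 0.05, no model, mm10), after alignment in the bcbio pipeline; replicates were not pooled. How duplicate reads were handled is not given in the sources used here. The deposited lists give peak length (bp), pileup (a coverage signal), fold enrichment (a ratio to local background), and p- and q-values as −log10. The authors' own test used reads, which were not used here, so no count test was run; read depth, which the study lists per library, did not enter any test. The lists reach down to a −log10 q-value of about 1.00, and 0.784% to 3.83% of peaks by library lay above a q-value of 0.05. Peaks off the main chromosomes (15 to 25 per library) were left out.

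Gene starts came from GENCODE vM21. At each start the overlapping peak (at least 1 bp) with the highest −log10 p-value was taken. Lines were compared by exact permutation over libraries, members with other genes by exact sign-flips (threshold 0.05), and single promoters with limma 3.58.1 (R 4.3.3, trend, 8 libraries in 1 fit) on log2 fold enrichment with no pseudocount. Other steps used Python 3.11.15, pandas 2.3.3 and numpy 2.4.6, and were tested on simulated data. Replicates are biological per the study. The p-values of exact permutation and of limma measure the spread between such samples. Those of the sign-flips measure how steady a difference between gene sets was over the 8 libraries of the 4 lines, and not the spread between genes. The members and lists were chosen with earlier results of these data known. Named members were those not called everywhere, the 5 highest, 5 lowest and 5 most variable, the 3 with the smallest p per contrast, and genes listed by role; a few of these are not reported here. Alternatives were windows of 250 and 1000 bp, a −log10 q-value of at least 3, any transcript start, stricter symbols, autosomes, equal peak numbers, the nearest peak, each library left out and, in limma, a replicate block, no centring, pileup and promoters called in at least 6 libraries. The members without retrocopies and Rps19bp1 were an alternative added after the data were seen.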

Additional observations from a re-analysis of the deposited data

How the results depend on the processing

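Relative to all other promoters, the ribosomal protein promoters kept a lower pileup, shorter peaks and a higher call rate under every alternative run. Each of these differences passed the exact sign-flip test in every run, though a higher call rate could be foreseen for housekeeping genes. Leaving out each library gave 34.9 to 36.1 points for call rate, and -0.31 to -0.28 for length and -0.11 to -0.08 for pileup on the log2 scale. The call-rate difference moved further under other alternatives. It was 27.7 points with a −log10 q-value of at least 3, 29.3 with equal peak numbers and 42.4 without retrocopies and Rps19bp1. The ratio of fold enrichment to that of other promoters, 0.00095, turned sign to -0.00303 with a window of 250 bp, -0.00298 with 1000 bp, -0.0035 with a −log10 q-value of at least 3, -0.0082 with any transcript start, -0.0057 with strict symbols, -0.00077 on autosomes and -0.00097 without retrocopies and Rps19bp1, and lay between -0.0048 and 0.0081 with each library left out; the cause was not tested.

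Members called in FAK-WT alone numbered 5 against FAK-/-, 11 against FAK-nls and 4 against FAK-kd with a −log10 q-value of at least 3 (1.77%, 7.04% and 0.707% of all genes), and 1 against FAK-kd with any transcript start (0.579%). With equal peak numbers they were 3, 0 and 0, and those called in the other line alone were 1, 6 and 1. Leaving out each library gave 3 to 7, 3 to 8 and 2 to 7, and 0 in the other direction. The highest counts came without FAK-/- replicate 1, FAK-nls replicate 2 and FAK-kd replicate 2 (2.26%, 5.49% and 2.101% of all genes). Without the other replicate of the same line they were 3, 4 and 2 (1.003%, 5.34% and 0.702%). In both cases a line rests on 1 library. In limma, 0 members passed in any of the 3 contrasts under the 20 alternatives; with a replicate block the smallest adjusted p of a member was 0.640, 0.235 and 0.998. Same-numbered replicates did not deviate together (correlation over promoters from -0.21 to 0.07). Without FAK-kd replicate 1, 7 and 1 promoters in all passed against FAK-nls and FAK-kd, with a −log10 q-value of at least 3, 6 passed against FAK-nls, and with pileup, 13, 35 and 3 passed, none a member. None of the 5 quantities compared between lines by exact permutation passed the threshold by adjusted p in any alternative run. With all libraries kept, the lowest adjusted p was 0.143 and the lowest unadjusted exact permutation p was 0.0286, both for length with any transcript start. Limits: without read counts a missing peak cannot be told apart from a peak just under the threshold.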
